A study of Homo sapiens with 6 samples.

Results

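The BCL2 family holds the proteins that set whether the mitochondrial outer membrane stays closed or is opened during apoptosis. Its transcripts were measured by poly(A) RNA-seq in enzalutamide-resistant LNCaP prostate cancer cells (LNCaP-ENZR) and in untreated LNCaP cells (LNCaP-WT), with 3 libraries in each group. The members described here are 10 named genes, all of which were found among the 23998 gene symbols of the deposited count table. They are the pro-survival genes BCL2, BCL2L1, BCL2L2 and MCL1, the effector genes BAX and BAK1, and the BH3-only genes BCL2L11, BID, BAD and PMAIP1. LNCaP is an established, androgen-responsive human prostate cancer line, and enzalutamide is a drug that blocks the androgen receptor. Per the labels, the LNCaP-ENZR cells are LNCaP cells taken through rising enzalutamide concentrations, 5 to 50 µM, over more than 12 months, with 10% charcoal-stripped (steroid-depleted) serum in the medium. The LNCaP-WT cells had no treatment, and the growth protocol given for every sample names 10% fetal bovine serum. The labels do not state whether drug or stripped serum was present at harvest. Drug history, serum and culture time therefore cannot be told apart, and the labels describe 1 derivation of the resistant cells, without saying whether it is a clone. The labels do not say whether libraries with the same label are separate cultures, so the p-values below measure only the spread between libraries, which may be technical.

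Pro-survival members hold back the effectors BAX and BAK1, which otherwise assemble in the outer membrane and let cytochrome c escape to start the caspase cascade. BH3-only members answer stress signals: they bind the groove of pro-survival proteins, and some also activate the effectors directly. In prostate cancer cells the pro-survival members are studied as targets of BH3-mimetic drugs. Many of these proteins are set by phosphorylation, cleavage or degradation, and the values here are of transcripts alone. Counts per gene also do not separate splice forms, such as the long and short forms of BCL2L1 and MCL1, which act in opposite directions.

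Library totals ran from 35790974 to 36610862 counts in LNCaP-ENZR and from 34505712 to 35531519 in LNCaP-WT. In a principal component analysis the leading axis took up 85.0% of the variance. Libraries of the same group were distinct from each other: the chi-square over genes, divided by its degrees of freedom, was 3.80 to 12.7, where counting noise alone gives values near 1. In each group the pairs with library 2 gave the larger values. These were 7.48 and 8.41 against 3.80 in LNCaP-WT, and 12.7 and 11.3 against 7.01 in LNCaP-ENZR. Of all 15422 tested genes, 69.2% were called at an adjusted p under 0.05 by edgeR's quasi-likelihood test, 34.4% as higher and 34.8% as lower in LNCaP-ENZR, and 21.6% were called with at least a 2-fold change, 9.74% higher and 11.9% lower. All 10 listed markers of luminal prostate cells were measured, with summed levels of 3113 to 3226 CPM (counts scaled to library size by TMM, a trimmed mean of gene ratios) in LNCaP-ENZR and 5961 to 6104 CPM in LNCaP-WT; 2 rose, 7 fell and 1 did not pass. Of the leukocyte markers, 7 were measured, at 15.9 to 19.8 against 14.3 to 15.6 CPM. CD68 made up most of that sum, at 17.0 ± 1.98 CPM in LNCaP-ENZR and 13.9 ± 0.594 CPM in LNCaP-WT, and rose (edgeR adjusted p = 0.015), and 3 of the 7 had fewer than 10 counts in every library. The 10 endothelial and fibroblast markers summed to 103 to 138 against 111 to 127 CPM. COL1A1 made up most of that sum, at 102.5 ± 7.48 CPM in LNCaP-ENZR and 105 ± 4.10 CPM in LNCaP-WT, and COL1A2 varied between libraries, with 9, 332 and 111 counts in LNCaP-ENZR and 167, 21 and 193 in LNCaP-WT. Of the 8 tested, 1 rose, 1 fell and 6 did not pass. KDR rose 4.11-fold (edgeR adjusted p = 0.0044), on 45 counts in LNCaP-ENZR and 11 in LNCaP-WT. ACTA2 fell 4.15-fold (edgeR adjusted p = 4.2e-04), on 29 counts in LNCaP-ENZR and 125 in LNCaP-WT. The 8 listed genes that mark PC-3 and DU145, other prostate cancer lines, summed to 158 to 176 against 183 to 202 CPM. EGFR made up most of that sum, at 118.5 ± 10.3 CPM in LNCaP-ENZR and 145 ± 10.2 CPM in LNCaP-WT. Of the 8 genes, 4 had fewer than 10 counts in every library, and of the 3 tested, 1 rose and 2 fell. No measured marker was at 0 in all libraries, but the T cell marker CD3E had 1 count over the LNCaP-ENZR libraries and 0 counts in every LNCaP-WT library. The part of these differences in the results below was not tested, and in bulk RNA fewer cells of a type cannot be told apart from less RNA per cell.

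All 10 members differed between the lines, by edgeR's quasi-likelihood test. All 4 pro-survival genes fell in LNCaP-ENZR and both effector genes rose, while the BH3-only genes split, with 2 higher and 2 lower. The changes were small. None of the 10 reached 2-fold, although PMAIP1 did without LNCaP-WT 2 (log2 fold change 1.08), and their median absolute log2 fold change was 0.37, against 0.50 over all tested genes. With 69.2% of all tested genes called, a call alone does not set a member apart. On the TMM-scaled CPM scale the libraries of the groups did not overlap for any of the 10, which was also so for 72.2% of tested genes, 35.8% with LNCaP-ENZR higher and 36.4% with it lower. The median log2 fold change of the members was -0.21, against -0.01 over all tested genes. Each member kept its direction in all 18 alternatives tried.

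**Figure D1:**
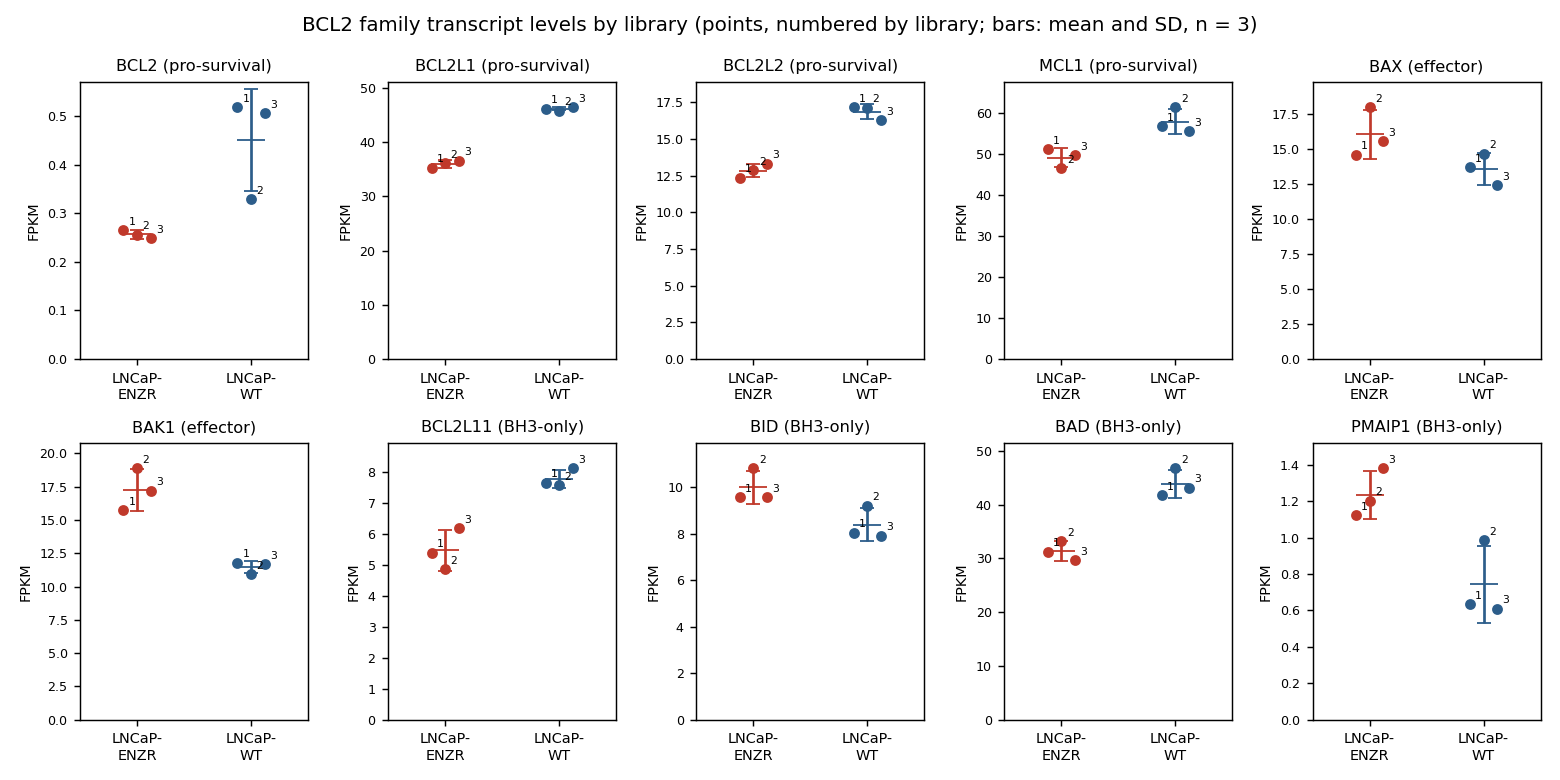
Deposited FPKM (vertical axes, each from 0) of the 10 members in every library, with LNCaP-ENZR on the left and LNCaP-WT on the right; points are libraries with their numbers, and bars give the mean and SD (n = 3). LNCaP-ENZR sits below LNCaP-WT for the 4 pro-survival genes, BCL2L11 and BAD and above it for BAK1, BID and PMAIP1, and the BAX points come closest, at 14.6 and 14.7 FPKM.

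Levels are given as the authors' FPKM (fragments per kilobase of gene model and scaled to the library total), so that genes of different length can be set side by side. FPKM values are scaled by library totals. On that scaling the median log2 fold change of all tested genes was -0.10, so LNCaP-ENZR levels read slightly low, whereas the fold changes use TMM scaling. In LNCaP-ENZR the order of mean FPKM was MCL1, BCL2L1, BAD, BAK1, BAX, BCL2L2, BID, BCL2L11, PMAIP1 and BCL2. In LNCaP-WT it was MCL1, BCL2L1, BAD, BCL2L2, BAX, BAK1, BID, BCL2L11, PMAIP1 and BCL2. BAK1 ranked above BCL2L2 in LNCaP-ENZR and below it in LNCaP-WT, also with other gene lengths. The places of BAX, BID and BCL2L11 depended on those lengths: per GENCODE 29 exon length, BCL2L2 stood above BAX and BCL2L11 above BID in LNCaP-ENZR, BAK1 and BCL2L11 stood above BAX in LNCaP-WT, and in each line 6 of the 10 members kept their rank. Among neighbours in the order, BAK1 and BAX overlapped in LNCaP-ENZR, and BCL2L1 and BAD as well as BID and BCL2L11 overlapped in LNCaP-WT. All other neighbours in the order by deposited FPKM had libraries that did not overlap. From the top to the bottom of the order, mean FPKM differed 192-fold in LNCaP-ENZR and 129-fold in LNCaP-WT.

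Among the pro-survival genes, MCL1 and BCL2L1 carried most of the transcript level and BCL2 under 1%. MCL1 encodes a short-lived protein that sequesters BAK1 and several BH3-only proteins. Its level was 51.1, 46.5 and 49.7 FPKM in the LNCaP-ENZR libraries 1 to 3 and 56.8, 61.3 and 55.6 FPKM in the LNCaP-WT libraries. The groups did not overlap. MCL1 fell by 0.15 on the log2 scale (± 0.056 SE, edgeR adjusted p = 0.023), or 1.11-fold, the smallest change of the 10. That call was lost without LNCaP-WT 2 (adjusted p = 0.13), LNCaP-ENZR 2 (0.083) or LNCaP-ENZR 3 (0.083). MCL1 lies on the minus strand of chr1:150574558-150579610.

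BCL2L1, whose long form is BCL-XL, had the tightest values of the family. It was at 35.3, 36.2 and 36.6 FPKM in LNCaP-ENZR and 46.2, 45.9 and 46.4 FPKM in LNCaP-WT. The groups were far apart relative to their spread, with SDs of 0.677 and 0.282 FPKM. BCL2L1 fell 1.21-fold (log2 fold change -0.27 ± 0.053 SE, edgeR adjusted p = 1.5e-04). It spans chr20:31664452-31723963 on the minus strand, and 43.0% of its exon bases in GENCODE 29 are shared with the antisense gene ABALON. ABALON itself had 8 counts over the LNCaP-ENZR libraries and 13 over the LNCaP-WT libraries. Without the strand setting, these counts do not show how many reads of the shared stretch were dropped, so the level of BCL2L1 is uncertain to that extent.

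BCL2L2 encodes BCL-W, a relative of BCL2 with the same anti-apoptotic action. It was at 12.4, 12.9 and 13.3 FPKM in LNCaP-ENZR and 17.2, 17.1 and 16.3 FPKM in LNCaP-WT, with no overlap. BCL2L2 fell 1.24-fold (log2 fold change -0.30 ± 0.064 SE, edgeR adjusted p = 3.2e-04). It lies at chr14:23306833-23311751 on the plus strand and shares 19.4% of its exon bases with the readthrough gene BCL2L2-PABPN1 on the same strand, so its count is uncertain to the extent that reads were split or dropped there. The readthrough gene had 41 counts in LNCaP-ENZR and 56 in LNCaP-WT.

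BCL2, the founding member of the family, was scarce in both lines. It was at 0.265, 0.256 and 0.248 FPKM in LNCaP-ENZR and 0.517, 0.329 and 0.505 FPKM in LNCaP-WT. LNCaP-WT 2 stood below the other LNCaP-WT libraries but above every LNCaP-ENZR library. BCL2 fell 1.65-fold (log2 fold change -0.73 ± 0.20 SE, edgeR adjusted p = 0.0029), the largest fall of the 10, on 288 counts over the LNCaP-ENZR libraries and 490 over the LNCaP-WT libraries. The call was lost in limma-trend on log2(FPKM + 0.1) without a filter on low values (adjusted p = 0.051). BCL2 spans chr18:63123346-63320090 on the minus strand.

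Summed over the 4 genes, the level was 98.2 ± 2.13 FPKM in LNCaP-ENZR and 121 ± 2.99 FPKM in LNCaP-WT (SD, n = 3). MCL1 held 50.0 ± 1.55% of that sum in LNCaP-ENZR and 47.7 ± 1.31% in LNCaP-WT, and BCL2L1 held 36.7 ± 1.06% and 38.1 ± 1.16%. The libraries overlapped for both shares. BCL2L2 held 13.1 ± 0.519% in LNCaP-ENZR and 13.9 ± 0.279% in LNCaP-WT, with no overlap, and BCL2 held 0.261 ± 0.0109% and 0.373 ± 0.0944%, with overlap. These shares and the ratios below are given as descriptions, without a test; an exact two-sided permutation of 3 libraries against 3 gives no p under 0.1.

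**Figure D2:**
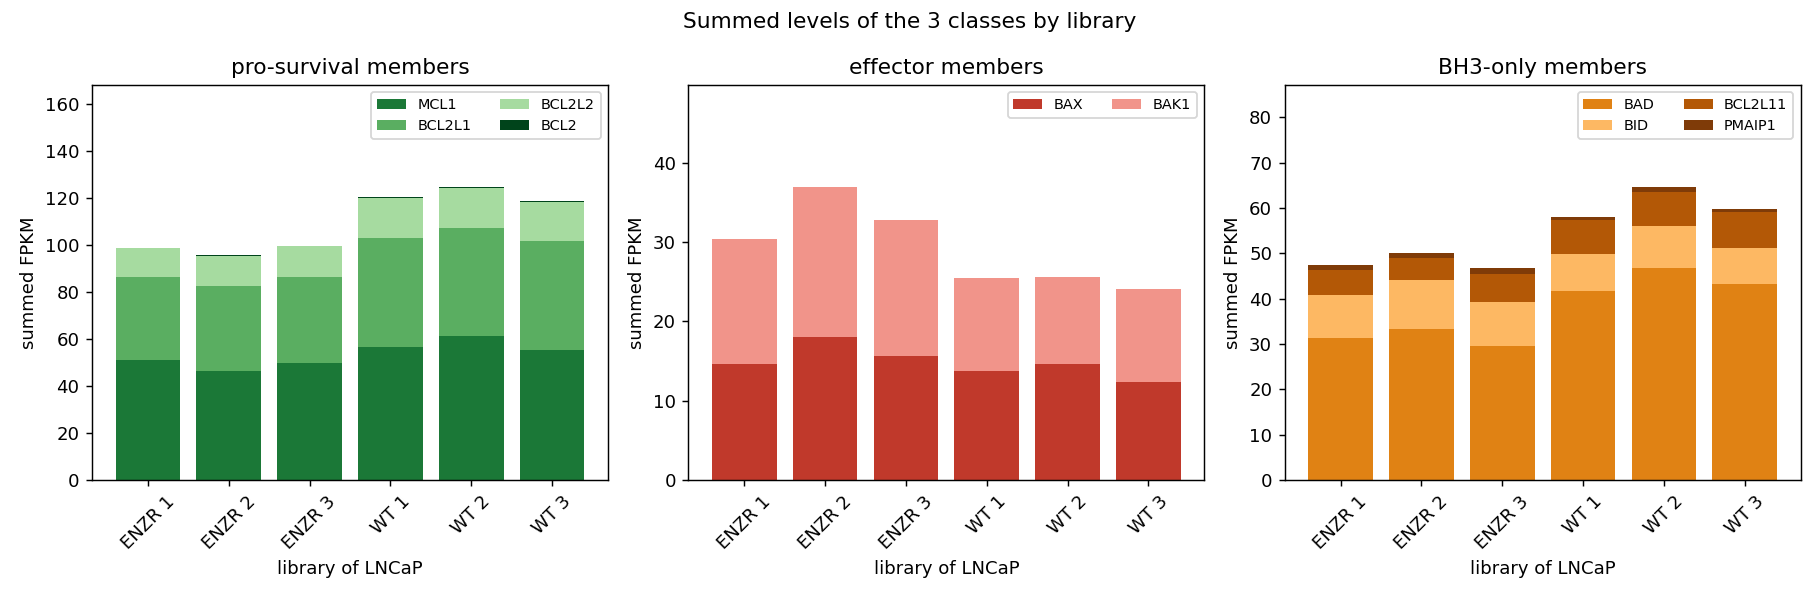
Summed deposited FPKM (vertical axes, from 0) of the pro-survival, effector and BH3-only members, stacked by gene for each library, with the LNCaP-ENZR libraries on the left and the LNCaP-WT libraries on the right. Effector sums run from 30.4 to 36.9 FPKM in LNCaP-ENZR and from 24.1 to 25.6 FPKM in LNCaP-WT, while pro-survival and BH3-only sums are lower in LNCaP-ENZR.

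Both effectors rose, BAK1 more than BAX. BAK1 encodes BAK, which sits in the outer membrane and permeabilizes it once activated. It was at 15.8, 18.9 and 17.2 FPKM in LNCaP-ENZR and 11.8, 10.95 and 11.7 FPKM in LNCaP-WT. Every LNCaP-ENZR library lay above every LNCaP-WT library, with LNCaP-ENZR 2 the highest. BAK1 rose 1.60-fold (log2 fold change 0.68 ± 0.080 SE, edgeR adjusted p = 3.7e-07), the smallest adjusted p among the members.

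BAX encodes the other effector member, which moves from the cytosol to mitochondria when activated. It was at 14.6, 18.0 and 15.6 FPKM in LNCaP-ENZR and 13.7, 14.7 and 12.4 FPKM in LNCaP-WT. On the FPKM scale the lowest LNCaP-ENZR library (14.6) fell just under the highest LNCaP-WT library (14.7), while on the TMM-scaled CPM scale the groups did not overlap. BAX rose 1.25-fold (log2 fold change 0.33 ± 0.096 SE, edgeR adjusted p = 0.0055). With an offset for the trend of counts with gene length, its log2 fold change was 0.18 and the call was lost (adjusted p = 0.066), as it was in limma-trend on log2(FPKM + 0.1) without a filter (adjusted p = 0.086). The length implied by the deposited tables is 1462 bases for BAX and 10362 for BCL2, the longest of the 10.

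Summed over both genes, the effector level was 33.3 ± 3.29 FPKM in LNCaP-ENZR and 25.1 ± 0.857 FPKM in LNCaP-WT. This sum, and its ratio to the pro-survival sum below, leave out BOK, a relative of BAX and BAK. BOK was at 13.0 ± 0.258 FPKM in LNCaP-ENZR and 25.3 ± 1.95 FPKM in LNCaP-WT, so the rise is of BAX and BAK1 alone. BAK1 made up 51.9 ± 0.629% of the sum in LNCaP-ENZR and 45.8 ± 2.90% in LNCaP-WT. These shares depend on the gene lengths: per GENCODE 29 exon length (2587 bases for BAX and 2212 for BAK1, against 1462 and 2301 implied by the deposited FPKM), BAK1 made up 66.5 ± 0.562% in LNCaP-ENZR and 60.8 ± 2.80% in LNCaP-WT. Which effector transcript was the more abundant in LNCaP-WT therefore cannot be told from these tables, while the share of BAK1 was higher in LNCaP-ENZR, with no overlap, under both sets of lengths. The ratio of the effector sum to the pro-survival sum, which does not depend on how libraries are scaled, was 0.340 ± 0.0404 in LNCaP-ENZR and 0.207 ± 0.00437 in LNCaP-WT. In the LNCaP-ENZR libraries 1 to 3 it was 0.307, 0.385 and 0.328, and in the LNCaP-WT libraries 0.211, 0.206 and 0.203, with no overlap. The ratio of BCL2 to BAX was 0.0161 ± 0.00197 in LNCaP-ENZR and 0.0336 ± 0.00983 in LNCaP-WT.

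The 250 bases before the RefSeq start of BAX are shown because they hold a repeated motif that the window of BAK1, the other effector that rose, lacks. Positions count back from the start, which is not included, and capitals mark every match, on either strand, to 4 motifs: the E2F motif TTTNNCGC, the FOXO motif GTAAACA, the CRE core TGACG and the E-box CACGTG. These were chosen for E2F1, FOXO3, ATF4 and MYC, the 4 of 7 listed transcription factor genes that were called, as given below. The letters do not single out these factors: FOXO1, also listed, did not pass (edgeR adjusted p = 0.68). The BAX window is chr19:48954625-48954874 (plus strand), from RefSeq on GRCh38.p14.
BAX: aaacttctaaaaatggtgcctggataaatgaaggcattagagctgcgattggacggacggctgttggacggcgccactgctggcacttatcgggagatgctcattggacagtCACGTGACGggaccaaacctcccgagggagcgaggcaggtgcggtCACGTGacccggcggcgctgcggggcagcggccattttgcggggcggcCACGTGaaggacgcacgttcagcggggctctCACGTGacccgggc
The BAX window held 4 E-boxes, at -138, -93, -45 and -14, and a CRE core at -134 that overlaps the first of them. Of 27305 promoters of the same length, 6.49% held an E-box, and of the 8 members with an entry 1 did, BAX. At least 4 were held by 5 promoters, BAX among them. That cutoff was set by the count in BAX, so the number is a description only. The BAK1 window, at chr6:33580277-33580526 on the minus strand, held no match to any of the 4. BAX had 25 CpG dinucleotides in its window, BAK1 had 5, and the median of all promoters was 11. A match describes the letters of the window and is not evidence of binding.

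The BH3-only genes went both ways. PMAIP1 encodes NOXA, which binds MCL1 and promotes its degradation. It was at 1.12, 1.20 and 1.38 FPKM in LNCaP-ENZR and 0.635, 0.987 and 0.610 FPKM in LNCaP-WT. The groups did not overlap, and LNCaP-WT 2 stood above the other LNCaP-WT libraries. PMAIP1 rose 1.76-fold (log2 fold change 0.82 ± 0.19 SE, edgeR adjusted p = 9.6e-04), the largest change of the 10, on 569 counts in LNCaP-ENZR and 333 in LNCaP-WT. The ratio of MCL1 to PMAIP1 was 40.1 ± 4.90 in LNCaP-ENZR and 81.0 ± 16.3 in LNCaP-WT, with no overlap.

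BID is cut by caspase 8 into a fragment that activates BAX and BAK, and so links death receptors to mitochondria. Its level was 9.58, 10.8 and 9.56 FPKM in LNCaP-ENZR and 8.05, 9.20 and 7.91 FPKM in LNCaP-WT. Library 2 was the highest in each group, and the groups lay close together without overlap. BID rose 1.26-fold (log2 fold change 0.34 ± 0.088 SE, edgeR adjusted p = 0.0021).

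BCL2L11 encodes BIM, which binds all pro-survival members and activates the effectors. It was at 5.40, 4.86 and 6.18 FPKM in LNCaP-ENZR and 7.66, 7.58 and 8.13 FPKM in LNCaP-WT, with no overlap. BCL2L11 fell 1.34-fold (log2 fold change -0.42 ± 0.078 SE, edgeR adjusted p = 8.9e-05). It shares 10.9% of its exon bases with MIR4435-2HG on the opposite strand, which had 87 counts in LNCaP-ENZR and 183 in LNCaP-WT.

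BAD is held inactive by phosphorylation and 14-3-3 binding, and when freed it binds BCL2, BCL-XL and BCL-W. It had the highest level of the 4 BH3-only members, also per GENCODE 29 length. The levels were 31.3, 33.3 and 29.7 FPKM in LNCaP-ENZR and 41.7, 46.8 and 43.2 FPKM in LNCaP-WT, with no overlap. BAD fell 1.32-fold (log2 fold change -0.40 ± 0.072 SE, edgeR adjusted p = 7.1e-05). GPR137, on the opposite strand, shares 23.7% of the exon bases of BAD and fell 1.43-fold. The strand setting of the counting is not given in the sources used here. Reads in the shared stretch, as in that of BCL2L11, therefore cannot be assigned with certainty.

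Summed over the 4 BH3-only members, the level was 48.1 ± 1.78 FPKM in LNCaP-ENZR and 60.8 ± 3.35 FPKM in LNCaP-WT. BAD made up 65.2 ± 1.60% of it in LNCaP-ENZR and 72.2 ± 0.307% in LNCaP-WT, and BID made up 20.7 ± 0.727% and 13.8 ± 0.516%. PMAIP1 made up 2.57 ± 0.327% in LNCaP-ENZR and 1.21 ± 0.276% in LNCaP-WT. None of these 3 shares overlapped between groups. BCL2L11 made up 11.4 ± 1.75% in LNCaP-ENZR and 12.8 ± 0.970% in LNCaP-WT, with overlap. Relative to the pro-survival sum, the BH3-only sum was 0.490 ± 0.0291 in LNCaP-ENZR and 0.501 ± 0.0185 in LNCaP-WT, and here the libraries overlapped. The BH3-only sum and this ratio leave out BMF, BBC3, HRK and BIK, other BH3-only genes given below. BMF was at 2.68 ± 0.175 FPKM in LNCaP-ENZR and 6.90 ± 0.0881 FPKM in LNCaP-WT. BBC3 and HRK were also called lower and BIK did not pass, so the sum and ratio are of the 4 members alone.

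The windows before the starts of PMAIP1 and BCL2L11 are shown as examples from the BH3-only members, picked with their directions and matches known. Whether a match bears on the direction of a gene was not tested. The PMAIP1 window is chr18:59899746-59899995 (plus strand) and the BCL2L11 window chr2:111120664-111120913 (plus strand), from the same RefSeq build and with the same 4 motifs in capitals.
PMAIP1: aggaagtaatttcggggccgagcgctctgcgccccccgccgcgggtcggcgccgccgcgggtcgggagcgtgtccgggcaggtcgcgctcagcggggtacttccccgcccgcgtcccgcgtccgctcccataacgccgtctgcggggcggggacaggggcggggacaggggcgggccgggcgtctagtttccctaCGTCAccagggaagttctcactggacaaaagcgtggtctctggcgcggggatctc
BCL2L11: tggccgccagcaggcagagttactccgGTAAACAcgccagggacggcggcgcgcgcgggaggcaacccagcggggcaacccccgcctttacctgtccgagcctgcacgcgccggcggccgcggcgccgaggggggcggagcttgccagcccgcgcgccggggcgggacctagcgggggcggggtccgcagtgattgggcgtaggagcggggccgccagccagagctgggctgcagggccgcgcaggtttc
In PMAIP1 the only match was a CRE core from -55 to -51, the letters bound by ATF and CREB factors. The CRE core was common, in 21.7% of all promoters and in 5 of the 8 members with an entry (BCL2, BCL2L1, BAX, BAD and PMAIP1), a set that includes genes that rose and genes that fell. In BCL2L11 the only match was a FOXO motif from -223 to -217, which 2.98% of promoters held. BCL2L1 held the only E2F match among the members, from -111 to -104 (5.93% of promoters). BID held no match in the window read, which precedes the first start listed for it. That window, chr22:17774470-17774719, lies mostly inside the span of BID, chr22:17734138-17774665. The BCL2 window, chr18:63319770-63320019, lies wholly inside the span of BCL2, so its CRE core is not upstream of the whole gene.

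**Figure D3:**
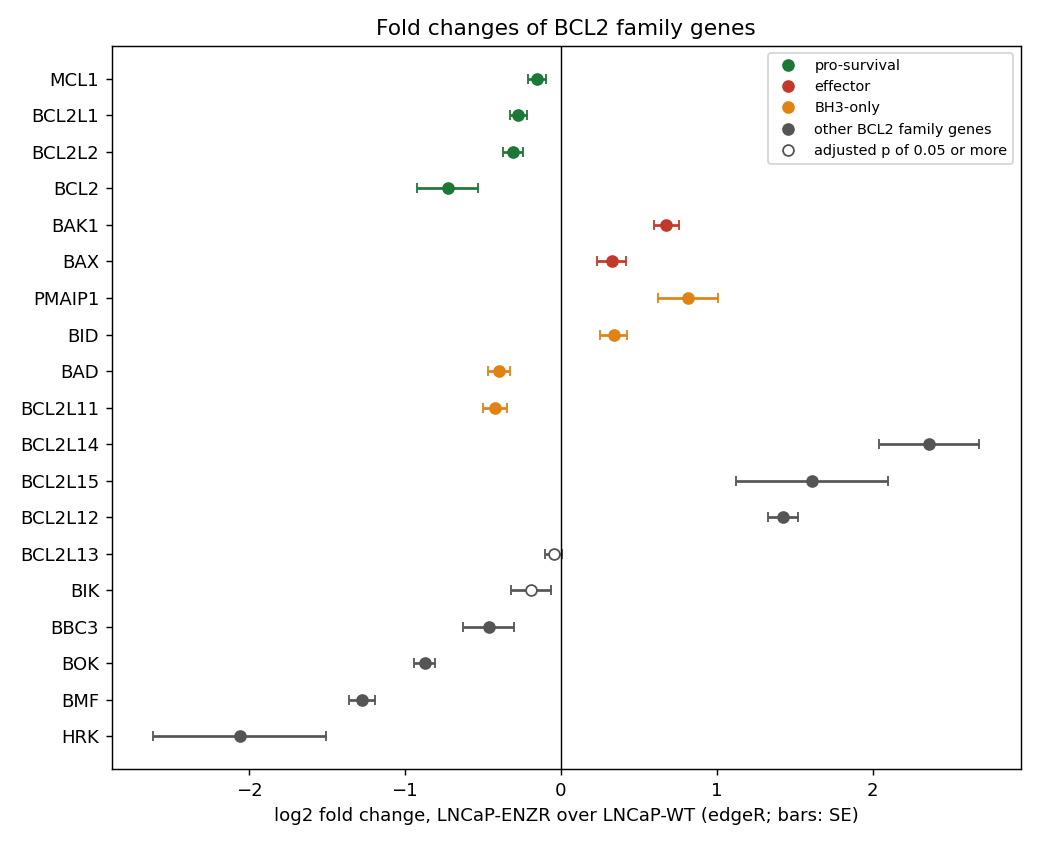
Log2 fold changes of LNCaP-ENZR over LNCaP-WT from edgeR (horizontal axis; bars, SE) for the 10 members by class and the 9 other tested BCL2 family genes. Pro-survival members lie left of 0, effectors right of 0 and BH3-only members on both sides, and the other family genes span a wider range, from -2.06 for HRK to 2.36 for BCL2L14.

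Some other genes of the family changed by more than 2-fold, which none of the 10 members did in the same fit. Of 11 listed, 9 passed the filter on low counts, and of these 3 rose, 4 fell and 2 did not pass (77.8% called, median log2 fold change -0.19). BMF, a BH3-only protein tied to the cytoskeleton, was at 2.58, 2.88 and 2.58 FPKM in LNCaP-ENZR and 6.91, 6.98 and 6.80 FPKM in LNCaP-WT. It fell 2.42-fold (edgeR adjusted p = 7.5e-11). BOK, a relative of BAX and BAK, was at 12.8, 13.3 and 13.0 FPKM in LNCaP-ENZR and 24.2, 24.2 and 27.6 FPKM in LNCaP-WT, and fell 1.83-fold (edgeR adjusted p = 1.1e-09). BBC3, which encodes the BH3-only protein PUMA, was at 2.0, 1.89 and 2.50 FPKM in LNCaP-ENZR and 2.87, 3.85 and 2.62 FPKM in LNCaP-WT. It fell 1.38-fold (edgeR adjusted p = 0.017), but the groups overlapped on the TMM-scaled CPM scale and the call was lost without LNCaP-WT 2 (adjusted p = 0.15) or LNCaP-ENZR 2 (0.070). HRK, a BH3-only gene best known from neurons, had 13 counts in LNCaP-ENZR and 57 in LNCaP-WT and fell 4.17-fold (edgeR adjusted p = 0.0029).

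The genes that rose were more distant relatives. BCL2L12, an atypical member, was at 7.99, 9.22 and 8.75 FPKM in LNCaP-ENZR and 3.25, 3.68 and 3.33 FPKM in LNCaP-WT, and rose 2.69-fold (edgeR adjusted p = 1.3e-10). BCL2L14 (BCL-G) was at 0.874 ± 0.166 FPKM in LNCaP-ENZR and 0.180 ± 0.0809 FPKM in LNCaP-WT. It rose 5.14-fold (edgeR adjusted p = 2.4e-06), on 291 counts in LNCaP-ENZR and 58 in LNCaP-WT. BCL2L15 had 81 counts in LNCaP-ENZR and 27 in LNCaP-WT (3.06-fold, edgeR adjusted p = 0.0065), a call lost in limma-trend on log2(FPKM + 1) (adjusted p = 0.059). BIK, a BH3-only protein of the endoplasmic reticulum, was at 6.47 ± 0.185 FPKM in LNCaP-ENZR and 7.84 ± 0.512 FPKM in LNCaP-WT and did not pass (edgeR adjusted p = 0.19). BIK was called lower in 4 alternatives, the length offset (adjusted p = 0.012) and the 3 fits on log2 FPKM (0.0071 to 0.011). BCL2L13, a mitophagy receptor, was at 15.7 ± 0.295 FPKM in LNCaP-ENZR and 17.2 ± 0.339 FPKM in LNCaP-WT (edgeR adjusted p = 0.45) and was called lower when libraries were scaled by their totals alone (adjusted p = 0.033) and in the same 3 fits (0.022 to 0.035). BCL2A1, with 1 count in LNCaP-ENZR and 3 in LNCaP-WT, and BCL2L10, with 15 and 8, were too scarce to test.

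The counts for the pathway lists stand beside 69.2% of all tested genes called, 34.4% higher and 34.8% lower. On the membrane where the effectors act, all 4 listed partners rose (median log2 fold change 0.64). MTCH2, the receptor for cleaved BID, was at 60.0 ± 1.47 FPKM in LNCaP-ENZR and 28.5 ± 0.704 FPKM in LNCaP-WT (2.23-fold, edgeR adjusted p = 3.4e-13). VDAC1 rose 1.75-fold, VDAC3 1.39-fold and VDAC2, which holds BAK at the membrane, 1.29-fold. Downstream, 3 of 6 genes of the apoptosome and caspases rose, 2 fell and 1 did not pass. CYCS, which encodes cytochrome c, rose 1.99-fold and the executioner caspase gene CASP6 1.32-fold. The initiator CASP9 was at 2.15 ± 0.353 FPKM in LNCaP-ENZR and 4.42 ± 0.484 FPKM in LNCaP-WT (1.94-fold lower, edgeR adjusted p = 1.4e-06). APAF1, the scaffold that activates caspase 9, fell 1.22-fold (edgeR adjusted p = 0.013), a call lost with length offsets (adjusted p = 0.061) and without LNCaP-ENZR 2 (0.080).

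Of 7 listed inhibitor of apoptosis (IAP) genes and IAP antagonists, 2 rose, 3 fell and 2 did not pass, and 5 were lower with library totals as the only scaling. XIAP, the direct caspase inhibitor, fell 1.48-fold, BIRC2 1.5-fold and BIRC3 2.95-fold. BIRC5, which encodes survivin and also serves in mitosis, rose 3.01-fold (edgeR adjusted p = 3.6e-14). Of 4 genes that control MCL1 turnover, the ligase genes HUWE1 and FBXW7 rose 1.36-fold and 1.29-fold, MARCHF5 fell 1.28-fold and the deubiquitinase gene USP9X did not pass (edgeR adjusted p = 0.44). FBXW7 did not pass in the 3 fits on log2 FPKM (adjusted p = 0.053 to 0.11).

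Of 13 tested genes for kinases that phosphorylate BAD and for 14-3-3 proteins, 10 rose, 0 fell and 3 did not pass (edgeR; 76.9% called, against 69.2% of all tested genes; median log2 fold change 0.24). With library totals as the only scaling, 6 rose and 1 fell. YWHAE, the 14-3-3 gene with the highest FPKM on the list, was at 588 ± 16.8 FPKM in LNCaP-ENZR and 416 ± 18.4 FPKM in LNCaP-WT (1.5-fold). YWHAH rose 1.60-fold, the kinase gene PIM1 1.75-fold and SFN, which encodes 14-3-3 sigma, 4.33-fold. SFN had 507 counts in LNCaP-ENZR and 120 in LNCaP-WT.

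**Figure D4:**
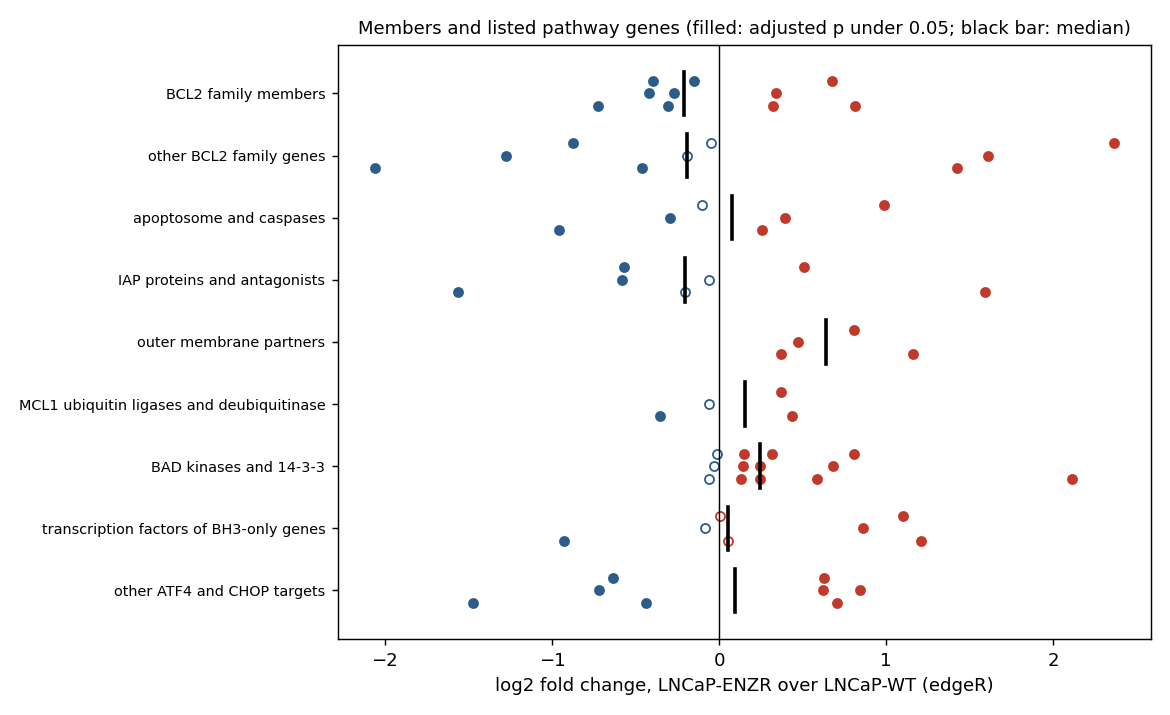
Log2 fold changes of LNCaP-ENZR over LNCaP-WT from edgeR (horizontal axis) for the members and for each tested gene of the 8 pathway lists; filled points passed at an adjusted p under 0.05, open points did not, and black bars are medians. The medians run from -0.21 for the members to 0.64 for the outer membrane partners.

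Among 7 transcription factor genes known to control BH3-only genes, 3 rose, 1 fell and 3 did not pass. Those that did not pass were TP73, FOXO1 and DDIT3, the gene of CHOP (edgeR adjusted p = 0.80, 0.68 and 0.94). MYC was at 86.2 ± 1.52 FPKM in LNCaP-ENZR and 39.7 ± 1.25 FPKM in LNCaP-WT (2.31-fold). E2F1 rose 2.14-fold and ATF4, which induces PMAIP1 under stress, 1.81-fold. FOXO3, an activator of BCL2L11, BBC3 and BMF, was at 9.09 ± 0.640 FPKM in LNCaP-ENZR and 18.4 ± 0.287 FPKM in LNCaP-WT (1.90-fold lower, edgeR adjusted p = 2.6e-11).

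The 8 other targets of ATF4 and CHOP divided evenly, with 4 higher and 4 lower. ASNS, asparagine synthetase, rose 1.79-fold and CHAC1, which degrades glutathione, 1.63-fold, whereas SESN2 fell 1.64-fold and VLDLR fell 2.78-fold.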

How the data were processed

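The authors deposited raw counts per gene symbol and an FPKM table for the same 6 libraries; fastp, HISAT2, HTSeq and the build GRCh38 appear in the submitters' processing notes, without versions or roles. The sources used here give no annotation, counting mode or strand setting. The deposited FPKM values are the counts divided by gene length and library total: for 21658 of 21658 genes with counts in at least 2 libraries, the implied length was equal in all libraries within 0.001%. Those lengths served for length offsets.

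The deposited counts entered edgeR 4.0.16 under R 4.3.3 (quasi-likelihood F test, robust, two-sided, TMM, default filter on low counts, Benjamini-Hochberg over 15422 genes). SEs derive from the F statistic. Alternatives used other scalings and filters, DESeq2 1.42.0, limma 3.58.1, length offsets, a block for replicate number, and leaving out single libraries. The scripts were tested on simulated data. Named genes are the 10 members and the other family genes in the table. Each other pathway list added up to 4 called genes of largest change with a mean of at least 100 counts. USP9X, CD3E, CD68, COL1A1, COL1A2, KDR, ACTA2, EGFR, TP73, FOXO1 and DDIT3 were named after their values were seen. The members and lists were chosen with earlier results of these data known. Positions and promoters are RefSeq on GRCh38.p14 (8 of 10 members matched); exon overlaps are from GENCODE 29. Some listed items are not reported here.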

Additional observations from a re-analysis of the deposited data

How the results depend on the processing

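The direction of every member held in all 18 alternatives, and 174 combinations of member and alternative kept their side of the threshold. The 6 lost calls were 3 of MCL1, 2 of BAX and 1 of BCL2, as given above. Between 9 and 10 members were called with each library left out, 8 in limma-trend on log2(FPKM + 0.1) without a filter and 9 with length offsets. For other named genes, 8 calls were lost, 8 were gained and 628 combinations kept their side, with no change of direction in a called value. The counts of all genes called with at least a 2-fold change were 1502 higher and 1830 lower, and 494 and 730 in limma-trend on log2(FPKM + 1), where the pseudocount shrinks the fold changes of low genes by construction. Leaving out single libraries kept the rank order of the members; TPM and TMM scaling cannot change it within a library. An alternative chosen after seeing the data, GENCODE 29 exon lengths, did: 6 of 10 ranks were kept in LNCaP-ENZR and 6 in LNCaP-WT. In that alternative, with LNCaP-ENZR before LNCaP-WT, BCL2L2 held 12.5% and 13.3% of the pro-survival sum. BAX held 33.5% and 39.2% of the effector sum, and BAK1 held 66.5% and 60.8%. BCL2L11 held 17.1% and 19.3% of the BH3-only sum, BID 16.1% and 10.7%, BAD 60.5% and 67.1%, and PMAIP1 6.32% and 2.99%. The BCL2 to BAX ratio was 0.0251 and 0.0524, and the MCL1 to PMAIP1 ratio 19.0 and 38.5. The effector to pro-survival ratio was 0.309 and 0.181, and the BH3-only to pro-survival ratio 0.425 and 0.433. Each difference between the lines kept its direction, though the libraries overlapped for the BCL2L11 share and the BH3-only to pro-survival ratio. PMAIP1 ranged from 0.36 to 1.08 on the log2 scale over the alternatives, the lowest in limma-trend on log2(FPKM + 1) and the highest without LNCaP-WT 2.

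Replicate numbers are shared by the groups, but same-numbered libraries deviated together only weakly (correlations of 0.0132, 0.0267 and 0.0651). Not every library correlated best with its own number. Whether same-numbered libraries shared a batch cannot be told from these correlations, and the main fit used no pairing. With a replicate block 10714 genes were called against 10674 without, and all 10 members were called. In the family, low counts limit BCL2, PMAIP1, HRK, BCL2L14 and BCL2L15, and BCL2A1 and BCL2L10 could not be tested.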
